A study of Homo sapiens with 8 samples.

Results

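The dynamin family was examined in an RBFOX2 eCLIP data set from HEK293T, a cell line derived from human embryonic kidney. The members are the 4 genes DNM1, DNM2, DNM3 and DNM1L, and every deposited peak whose midpoint lay inside the GRCh38 RefSeq span of one of them, on the strand of that gene, was taken. This gave 578 peaks of 1118316 in all 4 lists together, with 132, 151, 155 and 140 in replicates 1 to 4. The family was picked with its deposited log2 folds and p-values already known, so these values are a description here and were not tested.

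The series holds 8 samples, 4 libraries from RBFOX2 immunoprecipitation (IP) and the 4 inputs that match them by number. In eCLIP, ultraviolet light joins a protein to the RNA it touches, the protein is pulled down with an antibody, and the attached RNA is sequenced. All samples came from this line, and the labels name no treatment other than the crosslinking and no altered gene. The crosslinking dose was 400 mJ/cm2 of 254 nm light, and the input was a 2% portion of the same material. The labels do not say whether the 4 replicates were separate cultures, so the spread given below may be technical. RNA levels were not measured by these lists, and the identity of the line was not checked against marker genes.

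Dynamins are large GTPases that assemble into helical collars around the necks of membranes and, on hydrolysing GTP, cut them. DNM1 serves the retrieval of synaptic vesicles and is known mainly from neurons, DNM2 acts in clathrin-mediated endocytosis in most cells, and DNM3 is found mostly in brain and testis. DNM1L, also called DRP1, is recruited from the cytosol to divide mitochondria and peroxisomes. RBFOX2 is a splicing regulator that binds GCAUG elements in RNA, often in introns beside alternative exons.

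All 4 genes lie on the plus strand. DNM1 (NCBI gene 1759) spans chr9:128203379-128255244, DNM2 (1785) spans chr19:10718079-10831903, DNM3 (26052) spans chr1:171841498-172418466 and DNM1L (10059) spans chr12:32679301-32745650. The spans measure 51.9, 114, 577 and 66.3 kb in that order. Positions are those of the deposited lists, written 1-based. Exon and intron positions were not used here, so a position is given as a distance from the annotated start of the gene.

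Each list gives, for every peak, the authors' log2 fold of IP over its input and the −log10 of a p-value. Enriched peaks were those with a log2 fold of 3 (8-fold) or more whose −log10 p also reached 3, limits customary for eCLIP. Over all genes, 0.818% of listed peaks met this rule. The lists held 267691 to 288305 peaks each, with 2174 to 2389 enriched, and the median log2 fold of all listed peaks lay between −0.000866 and 0.00141. Read counts were not used here, so the depth behind a fold is unknown.

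The family divided by gene. DNM1 carried most of its enriched peaks, DNM2 the remainder, and DNM3 and DNM1L none in any replicate. Of the 132 enriched peaks in the family, 102 lay in DNM1 and 30 in DNM2. DNM3 and DNM1L had 97 and 70 listed peaks, too few to set a count of 0 apart from the 0.818% over all listed peaks. The share of the family's enriched peaks that lay in DNM1 was 77.5% ± 3.33 (SD, n = 4 replicates).

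In DNM1, 23, 30, 25 and 24 peaks were enriched of 43, 44, 51 and 48 listed in replicates 1 to 4 (mean 25.5 ± 3.11 enriched, SD, n = 4). Replicate 2 was the highest and the other 3 lay within 2 peaks of each other. The enriched share was 55.2% ± 8.88 against 0.818% over all listed peaks, a background given for scale only because the gene was picked on these calls. Nearly all of the other listed peaks in the gene also lay above input, with a log2 fold above 0.5 in 182 of the 186 DNM1 peaks (97.8%, against 31.4% over all listed peaks). The limit on the fold runs through the DNM1 values, since 19 peaks with a sufficient p lay between 2.5 and 3 and 27 between 3 and 3.5.

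In DNM2, 8, 10, 6 and 6 peaks were enriched of 53, 61, 59 and 52 listed (mean 7.5 ± 1.91, SD, n = 4), a share of 13.3% ± 2.93. The enriched share in DNM1 exceeded that in DNM2 in 4 of 4 replicates, by 38.4, 51.8, 38.9 and 38.5 percentage points, with replicate 2 alone at the upper end, and the ranges of both genes did not overlap. A further 12 DNM2 peaks reached the fold without the p, against 3 in DNM1. The median log2 fold of the listed peaks was 1.58, 1.74, 1.32 and 1.75 in DNM2 and 3.11, 3.46, 3.001 and 3.11 in DNM1.

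DNM3 held 19, 26, 25 and 27 listed peaks over the longest span of the family, and its median log2 fold was within 0.00141 of 0 in each library. These medians equalled the median and the commonest log2 fold over all listed peaks of the same library. The highest single log2 fold of DNM3 was 2.00, in replicate 1. DNM1L held 17, 20, 20 and 13 listed peaks, with median log2 folds of −0.74, −0.41, −0.79 and −0.000497. DNM1L was the member whose peaks most often lay below input: 10, 8, 12 and 4 of them had a log2 fold below −0.5, which is 48.6% of its 70 peaks against 23.6% of all listed peaks. The deposited −log10 p was 0 for peaks below input, so the lists hold no p for a deficit. Several DNM1L peaks of a library shared the same log2 fold, such as −1.001 in replicate 1. The read numbers behind these repeated values are unknown, so whether the share below −0.5 rests on few reads cannot be seen. Fewer listed peaks in a gene and less of its RNA in the cells cannot be told apart in these lists.

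Per 10 kb of span, DNM1 held 8.97 ± 0.713 listed peaks, DNM2 4.94 ± 0.389, DNM1L 2.64 ± 0.4999 and DNM3 0.420 ± 0.0623 (SD, n = 4 for each). No neighbours in this order overlapped between replicates. This density was not computed over all genes and RNA levels were not measured, so the order only describes these spans.

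**Figure D1:**
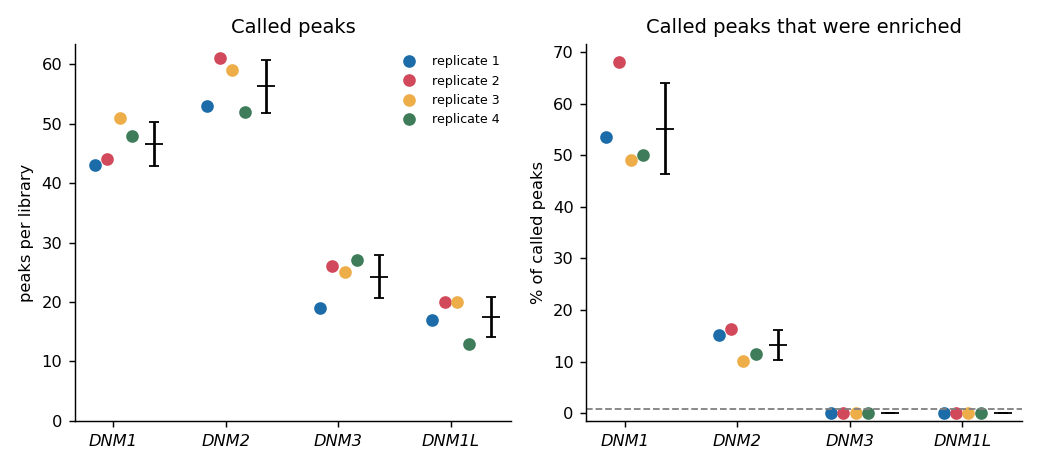
Listed peaks per library (left) and the percent of them that were enriched (right) for the 4 dynamin genes. Each point is 1 IP replicate, the black mark is the mean with its SD (n = 4), and the dashed line is the 0.818% found over all listed peaks. DNM2 has the most listed peaks, DNM1 the highest enriched share, and DNM3 and DNM1L sit at 0.

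**Figure D2:**
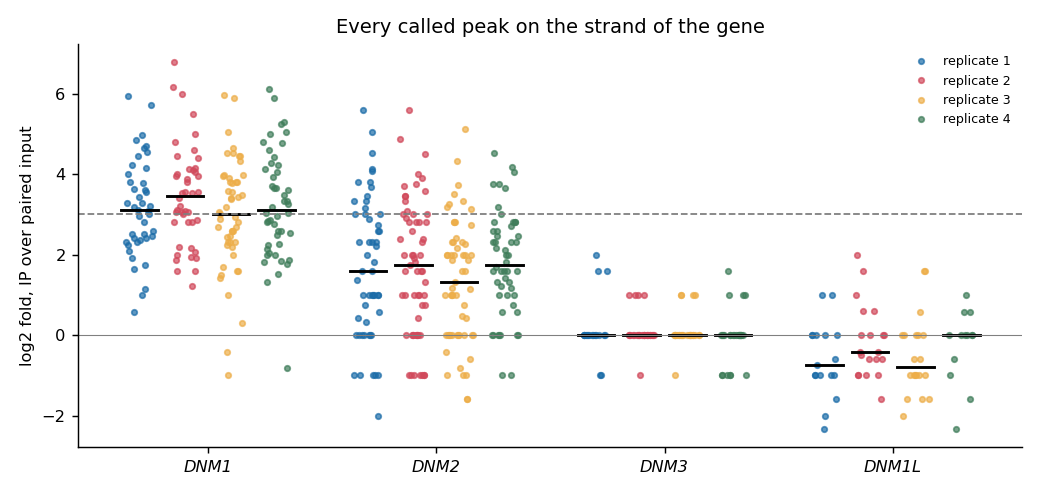
Log2 fold, IP over matching input, for every listed peak of the 4 genes, by replicate, with black bars at the medians and the dashed line at the limit of 3. DNM1 peaks lie almost wholly above 0, DNM2 peaks spread from below 0 to above 5, DNM3 peaks pile up at 0 and many DNM1L peaks lie below 0.

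The enriched peaks of DNM1 were gathered in the middle of the gene. When the span was cut into 10 equal segments, no listed peak fell in the first 3 of them, and segments 4 to 6 held 170 of the 186 listed and 100 of the 102 enriched peaks. Within these segments, 2 stretches stood out when regions of enriched peaks no more than 1000 nt apart were joined. The first, chr9:128222875-128226048, begins 19.5 kb from the gene start and is 3174 nt long. The second, chr9:128232180-128233993, begins 28.8 kb from the start and is 1814 nt long.

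The downstream stretch was the more strongly enriched. It held 16, 19, 17 and 18 enriched peaks in replicates 1 to 4, and these covered 62.3% to 70.9% of its length. Averaged over its listed nucleotides, the log2 fold was 4.27, 4.47, 4.11 and 4.37 (mean 4.31 ± 0.16, SD, n = 4). The upstream stretch held 7, 10, 7 and 6 enriched peaks over 18.1% to 31.8% of its length, and its log2 fold per listed nucleotide was 2.86, 3.07, 2.86 and 2.93 (mean 2.93 ± 0.10). The downstream value was higher in 4 of 4 replicates, by 1.38 ± 0.09, and the replicates of the stretches did not overlap. Stretches were joined from enriched peaks of these same lists, so their folds are high by construction. Their order is a description and was not tested.

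The replicates differed in how far their enriched peaks coincided. In the downstream stretch, 968 of the 1449 nt under an enriched peak in any replicate were under one in all 4 (66.8%), and in the upstream stretch 239 of 1259 were (19.0%). Over the whole gene, 42.8% of the nucleotides enriched in any replicate were enriched in all 4. The same share was 26.1% in DNM2 and 17.5% over all enriched nucleotides of the series. The value of the series is given for scale only, because both genes were picked on these calls.

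The strongest part of DNM1 was a region of 378 nt, chr9:128233311-128233688, which starts 29.9 kb from the gene start. A region is the merger of enriched peaks that overlap by at least 1 nt, and in each replicate it takes the log2 fold of its listed peak with the highest −log10 p. The log2 folds were 5.72, 6.78, 5.97 and 5.00 (mean 5.87 ± 0.73, SD, n = 4), with −log10 p between 45.1 and 68.2. All 4 replicates lay well above the limit of 3, and replicate 4 was the lowest. With all its listed peaks averaged by length, the mean was 5.07.

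Directly before it lay a region of 409 nt, chr9:128232902-128233310, with log2 folds of 4.84, 5.50, 4.44 and 5.04 (mean 4.95 ± 0.44). Both regions met at an edge that was identical in the 4 lists. In each replicate a listed peak ended at position 128233310 and the next began at 128233311. Only 92 end positions and 101 start positions in the whole series were shared by all 4 lists, and in the dynamin genes this edge was the only one of either kind. The peak after the edge had the higher log2 fold in 4 of 4 replicates, by 1.11, 0.67, 0.70 and 1.08 (mean 0.89 ± 0.24). Its −log10 p was 33.4, 39.9, 22.4 and 38.1, against 39.9, 48.0, 17.8 and 39.8 for the peak before the edge. The p thus went the other way in replicates 1, 2 and 4. The peaks also differed in length, with 20 nt before and 65 nt after the edge in replicate 3. How the peak caller placed this edge is not given in the sources used here.

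The rest of the downstream stretch held 3 more regions enriched in all 4 replicates. The region at chr9:128232517-128232836, upstream of the others, had log2 folds of 4.98, 4.12, 3.47 and 4.23 (mean 4.20 ± 0.62). The region at chr9:128233732-128233903 had 3.63, 4.79, 4.52 and 3.65 (mean 4.15 ± 0.60). The last, chr9:128233904-128233993, had 4.70, 3.21, 3.91 and 4.06 (mean 3.97 ± 0.61). The ranges of these 3 overlapped, and all lay below the region of 378 nt in each replicate.

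Upstream, 2 regions were enriched in all 4 replicates. The region at chr9:128224404-128224661 had log2 folds of 3.81, 3.07, 3.78 and 4.60 (mean 3.82 ± 0.63), and that at chr9:128224699-128224877 had 3.56, 3.06, 3.37 and 3.70 (mean 3.42 ± 0.28). By the peak with the highest −log10 p, both sat just above the limit in replicate 2, at 3.07 and 3.06. The region at chr9:128224404-128224661 also held a replicate 2 peak at 3.55, with a −log10 p of 7.45.

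The other 3 regions named in this stretch missed the limit in part of the replicates. The region at chr9:128225456-128225718 was enriched in replicates 1, 2 and 4, with log2 folds of 4.46, 3.88, 2.67 and 3.03 in replicates 1 to 4. That at chr9:128223078-128223165 had an enriched peak in replicates 1, 2 and 3, but its folds by the highest −log10 p were 2.502, 3.52, 2.69 and 2.75, because a neighbouring peak that reached into it had the better p in replicates 1 and 3. At chr9:128222875-128222988 the replicates parted: replicates 1 and 2 had 4.00 and 4.59, while replicates 3 and 4 had 2.19 and 2.00.

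A further 9 DNM1 regions were enriched in 1 replicate each, with mean log2 folds between 2.10 and 3.81 over the replicates that had a peak there. Of these, 2 lay in the last segment of the gene, at 48.1 and 50.9 kb from the start. In all, 7 of the 19 regions of DNM1 and 3 of the 11 of DNM2 were enriched in all 4 replicates, where 16.4% of the 3371 regions of the series were. These counts depend on the merging and on single libraries: with peaks within 50 nt of each other joined, DNM1 had 3 of 12, and without replicate 3 or without replicate 4, DNM2 had 5 regions enriched in the remaining 3.

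**Figure D3:**
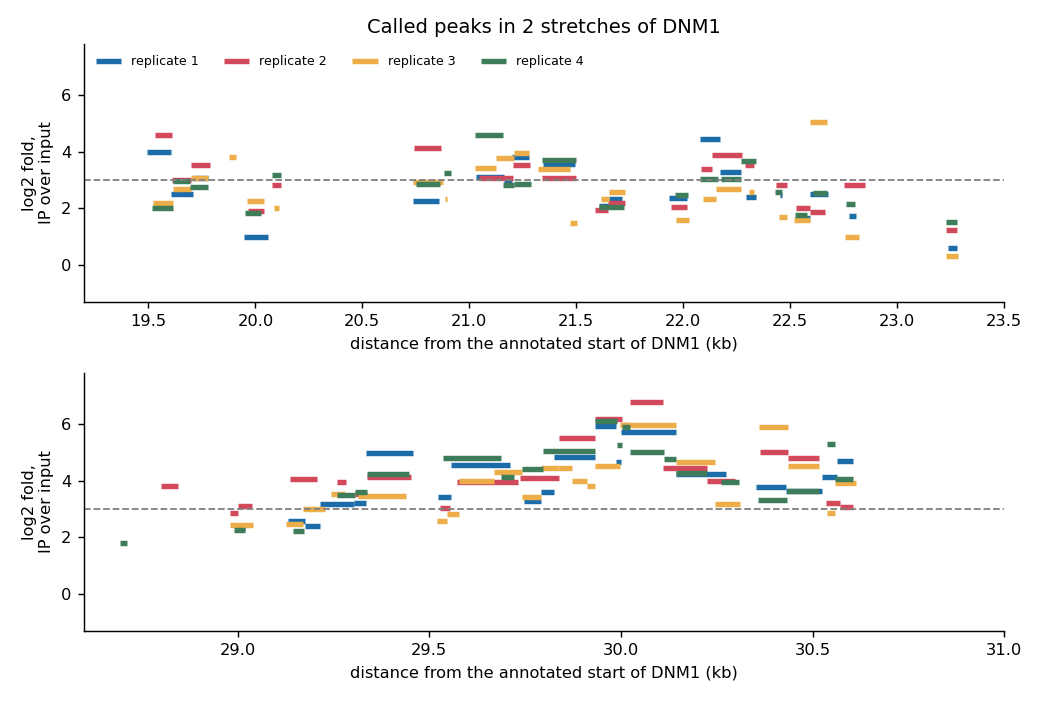
Listed peaks along both stretches of DNM1, drawn as bars from their first to their last base, with the distance from the gene start in kb on the horizontal axis and the log2 fold of IP over input on the vertical axis. The dashed line marks a log2 fold of 3. In the downstream stretch (lower panel) the 4 replicates climb together to about 30 kb, where the mean of the 4 reached 5.94, and in the upstream stretch (upper panel) they stay nearer the limit.

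DNM2 showed a compact group of regions further along its span. Segments 7 to 9 of 10 held 196 of its 225 listed peaks and all 30 enriched ones. The stretch chr19:10796224-10798345, 2122 nt long and beginning 78.1 kb from the gene start, held 7, 8, 6 and 5 of the enriched peaks in replicates 1 to 4. Its log2 fold per listed nucleotide was 4.05, 3.81, 3.45 and 3.32 (mean 3.66 ± 0.33, SD, n = 4), which lay between those of the DNM1 stretches in each replicate.

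In this stretch 3 regions were enriched in all 4 replicates. The region at chr19:10796884-10797046 had log2 folds of 5.58, 4.49, 3.74 and 4.06 (mean 4.47 ± 0.81), with replicate 1 the highest. That at chr19:10798197-10798345 had 5.04, 3.76, 5.13 and 3.75 (mean 4.42 ± 0.77), with replicates 1 and 3 above the other pair. That at chr19:10796432-10796550 had 4.11, 5.59, 3.503 and 3.66 (mean 4.22 ± 0.95), with replicate 2 the highest. The ranges of the 3 regions overlapped, and no replicate was highest in all of them.

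Between them lay 5 regions enriched in 2 or 3 replicates. Their mean log2 folds ran from 3.11 ± 0.45 at chr19:10797973-10798096 to 3.72 ± 0.75 at chr19:10798097-10798173. The region at chr19:10797184-10797283 had 4.52, 3.46 and 4.32 in replicates 1 to 3 and 1.70 in replicate 4. That at chr19:10797287-10797426 had 3.67, 3.70 and 3.14 in replicates 1 to 3 and narrowly missed the limit in replicate 4, at 2.81. The region at chr19:10797543-10797634 was enriched in replicates 2 and 3, at 4.86 and 3.25, and stood at 2.22 and 2.46 in the other pair.

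About 10 kb further on, chr19:10808196-10808366 was enriched in replicates 1, 2 and 4 with log2 folds of 3.81, 3.91 and 4.17, and had 1.88 in replicate 3. Past it, DNM2 carried many listed peaks of moderate fold, and chr19:10810277-10810399 was enriched in replicate 2 alone, at 4.00. Over the whole gene outside the joined regions, including the part before the stretch, the median log2 fold was 1.00, 1.00, 0.87 and 1.32 in replicates 1 to 4. It lies below the folds inside them by construction, since the regions were built from enriched peaks.

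**Figure D4:**
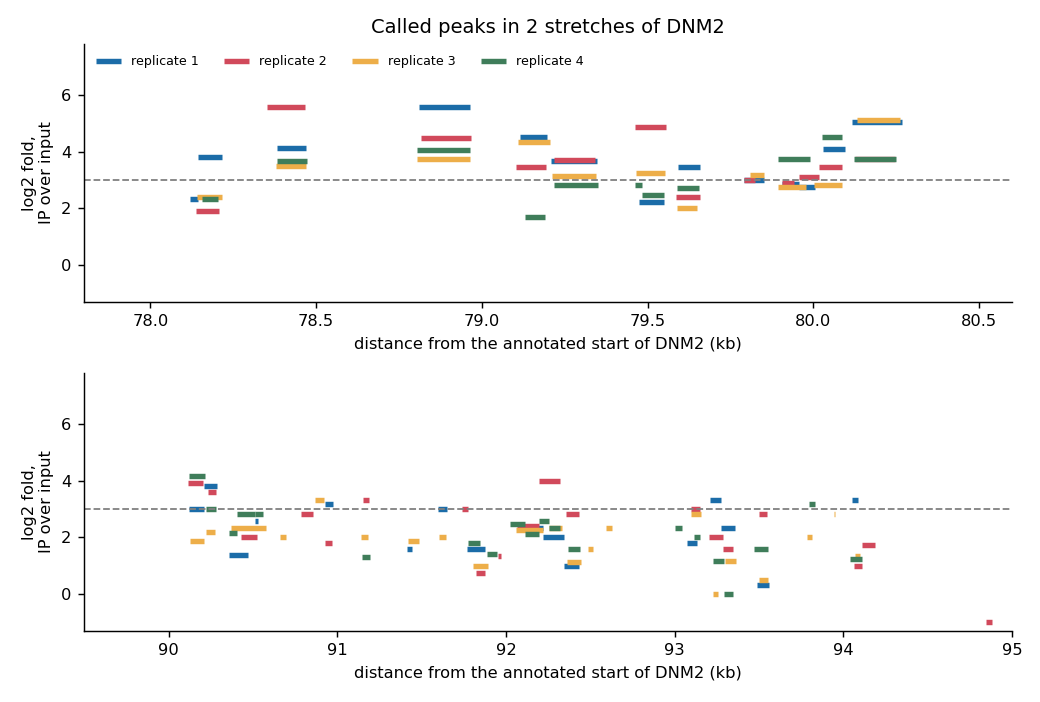
Listed peaks of DNM2 around its enriched stretch (upper panel) and further downstream (lower panel), with the distance from the gene start in kb against the log2 fold of IP over input. The dashed line marks a log2 fold of 3. Peaks of the upper panel lie mostly above 3 in a run of separate short regions, whereas those of the lower panel lie mostly between 1 and 3.

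**Figure D5:**
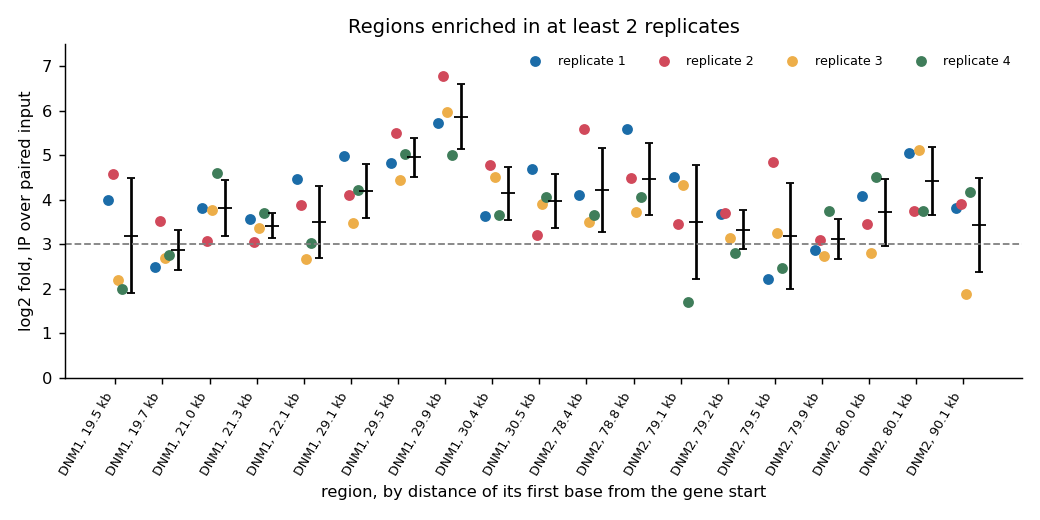
Log2 fold of the 19 regions of DNM1 and DNM2 that were enriched in at least 2 replicates, ordered by gene and by the distance of the first base from the gene start. Points are replicates, black marks are means with their SD (n = 4), and the dashed line is the limit of 3. The region of DNM1 at 29.9 kb is the highest, with a mean of 5.87.

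The MIR638 hairpin, 100 nt at the start of DNM2 on the same strand (chr19:10718404-10718503), is shown because it was the only one of 9 microRNA hairpins inside the family's spans with a peak in more than 1 list. Capitals mark bases 41 to 73, the part covered by the replicate 1 peak, which begins just after the mature miR-638 (bases 16 to 40). The sequence is that of RefSeq, GRCh38.p14, written 5′ to 3′.
MIR638: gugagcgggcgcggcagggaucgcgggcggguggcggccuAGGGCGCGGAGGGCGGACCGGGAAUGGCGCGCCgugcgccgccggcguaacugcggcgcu
The log2 fold there was −1.001 in replicate 1, 0.00141 in replicate 2 and −0.000497 in replicate 4, with a −log10 p of 0 in each, and replicate 3 listed no peak. The hairpin thus had peaks and no enrichment, unlike the DNM2 stretch 78.1 kb from the start. The 5 hairpins on the opposite strand, among them the miR-199 genes that lie antisense to dynamins, had no listed peak on their own strand.

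All 4 genes were also compared through regions of merged listed peaks. DNM1 had 20 such regions with a peak in all 4 lists, and in 19 of them the log2 fold was above 0.5 in every replicate. In DNM2 this held for 17 of 21, in DNM3 for 0 of 2 and in DNM1L for 0 of 7, beside 22.9% of the 49493 regions of the series. With only 2 and 7 regions, a count of 0 does not set DNM3 and DNM1L apart from that share. The fold was below −0.5 in every replicate in none of the regions of the 4 genes, DNM1L included, beside 2.16% of the regions of the series. Where peaks of a region tied in −log10 p, as at 0, the highest log2 fold was taken, so lower peaks can be hidden. At chr12:32701412-32701549 in DNM1L, replicate 4 was given −0.585 although it also listed a peak at −2.32. A count of 0 among so few regions thus says little about a deficit.

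Of the 76 merged regions of DNM3, 62 came from 1 list (81.6%). This share was 52.9% in DNM1L (18 of 34), 55.4% in DNM2 (56 of 101) and 25% in DNM1 (8 of 32), and 68.3% over the 701159 merged regions of the series. The highest region of DNM3 present in all lists, chr1:172093169-172093288, had log2 folds of 1.58, 1.00, 0.000771 and 1.00 (mean 0.90 ± 0.66). The highest of DNM1L, chr12:32738221-32738306, had 1.00, 1.00, 0.000771 and −0.000497 (mean 0.50 ± 0.58). In both, replicate 3 lay at input level, and the highest −log10 p of either region in any list was 0.204.

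On the strand opposite to DNM1L, 8, 9, 7 and 6 peaks were listed, none of them enriched. The highest log2 fold was 2.58 in replicate 4, with a −log10 p of 2.83. In replicate 1 the highest was 2.38, with a −log10 p of 3.48 that met the limit on p only. DNM1 and DNM2 had no listed peak on the opposite strand in any replicate, and DNM3 had 2 in all.

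Set beside the 10098 genes with a strand in the table and a listed peak in all 4 lists, DNM1 ranked 6 by its mean number of enriched peaks and DNM2 ranked 59, while by listed peaks alone they ranked 1131 and 826. Among the 3474 of these genes with at least 20 listed peaks on average, 81.3% had no enriched peak in any list, as was the case for DNM3. The genes closest to DNM1 in listed and enriched peaks over the 4 replicates were DGCR8 (44.5 listed and 28.25 enriched on average, Euclidean distance 0.439 over 8 log2 values) and TSC2 (50.5 and 20.75, distance 0.700). Those closest to DNM2 were SHANK3 (57.5 and 8, distance 0.660) and ACVR2B (52.75 and 7.75, distance 0.688). TMEFF1 and PLCH1 were closest to DNM3, and NEMP1 and LMAN2 to DNM1L, all with no enriched peak.

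Genes that work with dynamins were compared through a list of 54 genes of the clathrin coat, the AP-2 adaptor, membrane-bending and SH3-domain partners, mitochondrial fission and fusion factors and other dynamin-like GTPases. A strand was given for 49 and a listed peak in all 4 lists was found for 46. Of these, 3 (6.52%) held a region enriched in all 4 replicates, where 2.3% of the 10098 genes did. The median share of enriched peaks was 0% in the list and over all genes alike. When the −log10 p had to reach 5, 1 of the 46 (2.17%) and 1.59% of all genes held one.

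The 3 genes were AP2A1, AP2A2 and GAK. AP2A2, which encodes an alpha subunit of the AP-2 adaptor that links clathrin to cargo, had 13, 13, 13 and 8 enriched peaks and 4 such regions, the highest at a mean log2 fold of 4.14 ± 0.73 (chr11:990333-990586). AP2A1, the other alpha subunit, had 2, 1, 2 and 2 enriched peaks and 1 region at 4.18 ± 0.90 (chr19:49796543-49796985). The remaining AP-2 subunit genes, AP2B1, AP2M1 and AP2S1, had 0 enriched peaks in every list. GAK, a kinase that helps strip clathrin from vesicles, had 5, 3, 5 and 7 enriched peaks and 1 region at 4.50 ± 0.58 (chr4:914313-914767). None of the 4 clathrin chain genes, of the 6 fission partners of DNM1L with peaks in all lists (FIS1, MFF, MIEF1 and INF2 among them) or of the 2 dynamin-like GTPases with such peaks, ATL2 and ATL3, held an enriched peak in any list. Such absence was common: a region enriched in any replicate was held by 9.41% of the 10098 genes and by 7 of the 46 (15.2%). Some of the genes without one also had few listed peaks, such as FIS1 and ATL3 with 6.25 and 7.5 on average. EPN2, an epsin that binds the clathrin coat, had 2, 2, 4 and 0 enriched peaks and no region shared by 3 replicates. Of the 3 mitochondrial fusion GTPases, MFN2 had 1 enriched peak in replicates 3 and 4 each, and MFN1 and OPA1 had none.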

How the data were processed

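Peak lists of 4 RBFOX2 IP libraries, each set by the authors against the input of the same number, were analysed. The lists have no header. From the values, the first column after the coordinates was read as the deposited −log10 p and the second as the deposited log2 fold of IP over input. The submitters' processing notes name UMI-tools 1.1.1, cutadapt 3.2, STAR 2.7.7a, hg38 and GRCh38.p13. The peak caller, the p-value test and the scaling are not given in the sources used here. Spans came from a RefSeq table of GRCh38.p14 and strands from its promoter table (27302 genes with both). The 4 lists were filtered, merged by overlap and averaged as described with the results. No test of enrichment or of a difference between genes was run. Sets of 4 replicate values were screened for an outlying replicate by Dixon's Q. This is the gap between an end value and its neighbour over the whole range. The members, the gene list and the thresholds were chosen with earlier results of these data known. All 4 members were reported, with every region enriched in at least 2 replicates in DNM1 and DNM2, and the highest region listed in all 4 replicates for the others. List genes were named by rule where they held a region enriched in all 4 replicates, and the 2 nearest genes had the smallest distance over log2(peaks + 1). EPN2, MFN2 and the list genes named as without enrichment were chosen after their values were seen. The merging and the gene counts were tested on simulated intervals and by direct count. Python 3.11.15, numpy 2.4.6 and pandas 2.3.3 were used.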

Additional observations from a re-analysis of the deposited data

Results flagged for a closer look

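Of 80 sets of 4 replicate values examined by Dixon's Q, 7 had 1 replicate set apart from the others. Chance alone sets apart about 1 set in 20 if the values are normally distributed. Many of the sets share peaks and are not independent.

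The DNM2 region at chr19:10808196-10808366 had a log2 fold of 1.88 in replicate 3, far below 3.81, 3.91 and 4.17 in the other replicates (a gap of 0.842 of the whole range). Replicate 2 stood apart in the enriched peaks of the family, with 40 against 30 to 31, and in the enriched share of DNM1 over that of DNM2, with 51.8 percentage points against 38.4 to 38.9. The log2 fold by which the downstream stretch of DNM1 exceeded the upstream one was lowest in replicate 3, at 1.25, and reached 1.44 in the others. Among small counts, where equal values in the other replicates are enough to set one apart, DNM3 had 3 peaks with a log2 fold above 0.5 in replicate 1 and 4 in each of the others. AP2A1 had 1 enriched peak in replicate 2 and 2 in each of the others, and AP2A2 had 8 in replicate 4 and 13 in each of the others.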

How the results depend on the processing

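Asking for a log2 fold of 4 and ignoring p lowered the mean enriched peaks to 11.75 in DNM1 and 3.5 in DNM2, and the regions enriched in all 4 replicates to 2 and 0. A −log10 p of at least 5 lowered the DNM2 peaks to 4.75 and the listed partner genes from 3 to 1. Relaxing the log2 fold to 1 raised the regions in all 4 replicates to 12 in DNM1 and 5 in DNM2. An overlap of at least 25 nt gave 11 such regions in DNM1, and joining peaks within 50 nt gave 3, of 12 in all. Regions shared by the remaining replicates when 1 was left out numbered 7 to 9 in DNM1 and 3 to 5 in DNM2, with 5 without replicate 3 and 5 without replicate 4. DNM3 and DNM1L stayed at 0 under every alternative run. For the limits on fold and p this was fixed in advance. Their peaks reached a log2 fold of 2.00 and a −log10 p of 0.661 at most. This p lay below every limit set on p. The fold lay below every limit on fold except that of 1, and in that run the limit on p remained. An 8-fold enrichment falls on either side of the limit by library, and a limit just under 3 left the DNM1 and DNM2 counts at 25.5 and 7.5. This limit and the joining within 50 nt were chosen after seeing the data. Of 114 alternative values of the 19 region folds, 2 moved by over 1 SD and none reversed. A reversal could hardly occur, since the regions were picked for enrichment in these same replicates. No paired analysis was possible because the deposited values are ratios in which IP and input of 1 number are already joined. The alternatives on motifs and on exon positions were not run, since they need a genome and exon models, which were not used here. Without read counts, the precision of a single fold is unknown.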
